A study of Mus musculus with 13 samples.

Results

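The 4 control arrays of a mouse kidney study were described on their own, as a picture of the S1 segment of the proximal tubule without lipopolysaccharide. The whole series held 13 arrays of S1 segments from male C57BL/6J mice: 4 from controls that received saline vehicle (titled sham), 4 from mice given lipopolysaccharide and 5 from mice given it in a preconditioning scheme. Only the controls were used, chosen by their titles, and no treatment was compared. Each gene with a symbol of its own was represented by its brightest probe set in the controls, and 22180 genes were ranked by their mean log2 RMA value (robust multi-array averaging, which turns the signals of several probes into a single log2 value). How the segments were isolated, and whether each array came from its own mouse, is not given in the sources used here, so the spread between arrays may be partly technical. It is given as the SD over the 4 control replicates.

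The S1 segment is the first, convoluted stretch of the proximal tubule and receives the glomerular filtrate. Its cells take back most filtered phosphate, glucose, amino acids, bicarbonate and protein through brush-border transporters and endocytic receptors, and secrete organic anions and cations. They are rich in mitochondria, make glucose, and burn fatty acids more than sugar. Known markers of the proximal tubule include Slc34a1, the main sodium-phosphate cotransporter of the brush border, Slc5a2, the S1 and S2 glucose cotransporter SGLT2, and Lrp2, the endocytic receptor megalin.

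Some microRNA genes stood among the highest, and the sequences of a few of them are shown because they make clear which RNAs these are. The mature sequences below come from RefSeq (GRCm38.p6), written 5′ to 3′ with the seed, bases 2 to 8, in capitals. miR-3473c is at chr1:191998602-191998623 on the minus strand. miR-483-3p is at chr7:142654932-142654952 and miR-483-5p at chr7:142654968-142654989, both on the minus strand. miR-210-3p, known as a hypoxia-induced microRNA, is at chr7:141221407-141221428 on the minus strand.
mmu-miR-3473c: uCUCUCCAgcccccauaauaag
mmu-miR-483-3p: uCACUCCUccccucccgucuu
mmu-miR-483-5p: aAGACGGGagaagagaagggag
mmu-miR-210-3p: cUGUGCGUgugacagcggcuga
The seeds of these 4 sequences all differ. An array probe set of this kind reads RNA from the gene's region and does not tell the mature microRNA from its precursor.

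Levels were comparable within a gene more than between genes. Probe sets differ in their sequence and in their response to the same amount of RNA, so a rank between genes is a description, without a test. The files hold no detection calls. The level that silent genes reach was therefore read from the olfactory receptor genes, a family taken as mostly silent in kidney: the 95th percentile of its 1105 genes was 4.81, and their median 2.74. Of all genes ranked, 2038 (9.19%) had a mean above that reference, and of nuclear protein-coding genes 1544 of 16832 (9.17%). In each of the 4 arrays, against that array's own reference, 607 genes (2.74%) were above. The median of all genes was 3.74. A level over 10 was reached by 15 genes, over 8 by 42 and over 6 by 264.

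The 4 control arrays correlated with each other at a Pearson r of 0.864 to 0.898 across all genes, which are not independent replicates. Across the genes above the reference the Spearman correlation was 0.387 to 0.590. Pairs of arrays shared 53 to 68 of their 100 highest genes. Of the 100 highest genes by mean, 45 were in the top 100 of all 4 arrays. The SD between arrays had a median of 0.23 over all genes and 0.48 over the 100 highest. The number of genes above an array's own reference ranged from 955 in replicate 4 to 2215 in replicate 2. The mice were labelled male. Eif2s3y, Kdm5d and Uty of the Y chromosome had means of 2.76, 2.16 and 2.14, and Xist, the RNA of the inactive X chromosome, 3.22, all below the reference, so these probe sets bore out neither sex.

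**Figure D1:**
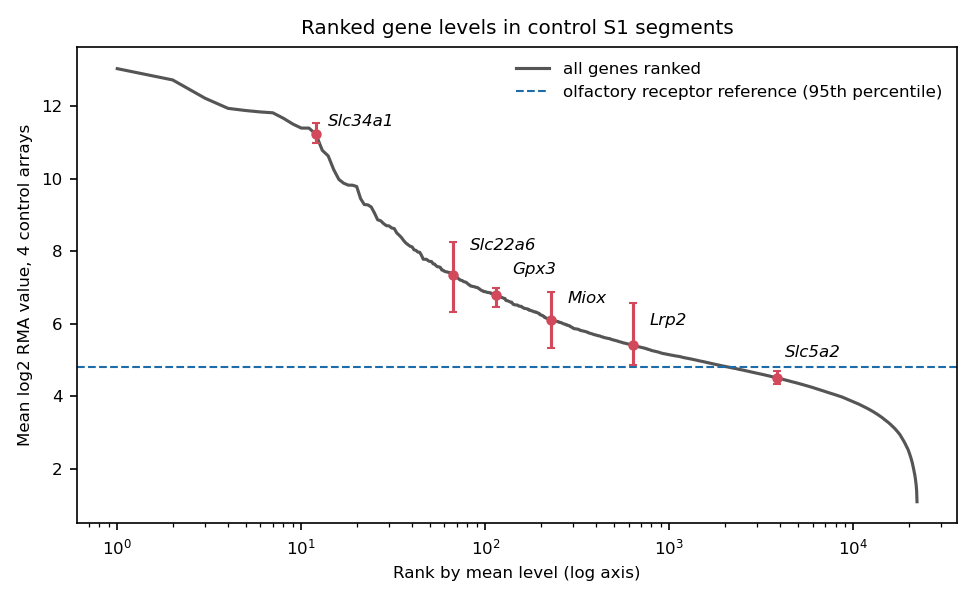
Mean log2 RMA value over the 4 control arrays (vertical axis) against rank among 22180 genes (horizontal log axis), with 6 proximal tubule markers as red points, bars from the lowest to the highest array and a dashed line at the olfactory receptor reference of 4.81. Slc34a1 stands at rank 12, Slc22a6, Gpx3, Miox and Lrp2 lie between rank 67 and 635, and Slc5a2 lies below the line at rank 3839.

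Slc34a1 was the highest nuclear protein-coding gene, at rank 12. Its level was 11.27, 11.54, 10.995 and 11.12 in control replicates 1 to 4, with a mean of 11.23 ± 0.23 (SD, n = 4). Its lowest array was above the highest array of the next transporter, Slc22a2, at 8.91. In single arrays it ranked between 7 and 13.

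Slc22a6, the organic anion transporter OAT1 of the basolateral membrane, had levels of 8.25, 7.09, 6.33 and 7.69 (7.34 ± 0.82, SD, n = 4) and rank 67. Gpx3, the secreted glutathione peroxidase that the proximal tubule makes for plasma, had levels of 6.997, 6.95, 6.46 and 6.73 (6.79 ± 0.24, SD, n = 4) and rank 114. Miox, the oxygenase that opens the inositol ring, had levels of 6.89, 6.46, 5.34 and 5.76 (6.11 ± 0.69, SD, n = 4) and rank 228. The ranges of these 3 genes over the arrays overlapped, although Miox was below Slc22a6 and Gpx3 on each of the 4 arrays. Replicate 3 was the lowest for all 3.

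Lrp2 had levels of 6.57, 5.30, 4.87 and 4.86 (5.40 ± 0.81, SD, n = 4) and rank 635. Replicate 1 alone was high, and without it the rank was 1377. Slc5a2 had levels of 4.42, 4.55, 4.71 and 4.34 (4.50 ± 0.16, SD, n = 4) and rank 3839. All 4 values were below the reference, and all were below the lowest Lrp2 value. Of the 6 markers, 5 were thus above the reference by their mean and the glucose cotransporter was not. Lrp2 was below the array's own reference in replicate 3 (4.87 against 4.89) and in replicate 4 (4.86 against 5.23).

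In the full list of S1 and S2 markers, which holds those 6, 19 of 20 genes were ranked and 9 (47.4%) were above the reference, against 9.19% of all genes. Their median percentile, the percent of ranked genes with a lower level, was 88.5, and ranged from 84.9 to 97.8 over the arrays. Besides 5 of the 6 markers already given, Slc22a2, Slc13a3, Slc4a4 and Slc22a8 were above. Slc5a12, the S1 and S2 lactate cotransporter, had a mean of 3.06 ± 0.62 (SD, n = 4), and Slc2a2, the basolateral glucose transporter, 4.26 ± 0.36 (SD, n = 4). Cubn, the partner of megalin, had a mean of 4.16 ± 0.46 (SD, n = 4). These 3 means were below the reference, as was that of Slc5a2.

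Of 8 ranked markers of the S3 segment, the straight end of the proximal tubule, 2 (25%) were above the reference, against 9.19% of all genes. Their median percentile was 30.3 (28.7 to 51.7 over the arrays). Atp11a, a phospholipid flippase, had a mean of 5.84 ± 0.81 and Slc6a18, a neutral amino acid transporter, 4.96 ± 0.30 (SD, n = 4). Slc5a1, the glucose cotransporter of S3, had a mean of 2.94 ± 0.43, and Slc7a13, a cystine transporter of S3, 3.29 ± 0.67 (SD, n = 4). The median of the S1 and S2 markers was higher than that of the S3 markers in all 4 arrays. Such a median does not mark a segment by itself, since that of loop, distal tubule and collecting duct markers was 72.1. By count, the S3 share of 25% was below the 47.4% of the S1 and S2 markers but above that of all genes.

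Markers of other cells, pooled over their lists, stood near the 9.19% of all genes. Of 83 ranked, 7 (8.43%) were above the reference: Umod, Cldn19 and Foxi1 of later nephron segments, Egfl7 of endothelium, Acta2 of mural cells, Cx3cr1 of macrophages and Nkg7 of lymphocytes. No podocyte marker of 7 and no neutrophil marker of 8 was above. Umod, the uromodulin of the thick ascending limb, had levels of 6.77, 4.28, 4.30 and 5.10, so replicate 1 was high. The mean level of the later-segment list (loop to collecting duct) ranged from 4.13 to 4.34 over the arrays, and that of the macrophage list from 3.79 to 3.88. Of the erythrocyte list only Slc4a1 was ranked. The part of other cells in the levels given here was not tested.

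Transporters named by their symbols (Slc, Slco, Abc, Aqp and Atp1) numbered 430 among the genes ranked. Of these 44 (10.2%) were above the reference, close to the share of all genes, so the group as a whole did not stand apart and single members did. Beside Slc34a1 and Slc22a6, Slc22a2 was in the top 100. Slc22a2, the organic cation transporter OCT2, had levels of 8.91, 7.66, 6.89 and 8.07 (7.88 ± 0.84, SD, n = 4) and rank 45. The organic ion family Slc22 had 7 of 23 members above the reference, the Slc5 family 0 of 9 and the Slc7 family 0 of 15.

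Slc22a12, the urate transporter URAT1, had levels of 7.28, 6.56, 6.32 and 7.02 (6.79 ± 0.43, SD, n = 4) and rank 112. Abcc2, the apical efflux pump MRP2, had levels of 7.15, 6.02, 5.84 and 5.77 (6.20 ± 0.65, SD, n = 4) and rank 209. Slc13a3, the dicarboxylate cotransporter NaDC3, had levels of 7.44, 5.93, 5.48 and 5.66 (6.13 ± 0.89, SD, n = 4) and rank 220. Replicate 1 was the highest for all 3. The organic anion and cation list had 10 of 24 members above the reference.

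Of the genes of sodium, bicarbonate and water transport, 6 of 14 were above. Atp1b1, the beta subunit of the sodium pump, had levels of 7.94, 6.48, 6.29 and 5.83 (6.64 ± 0.91, SD, n = 4) and rank 130. Slc4a4, the basolateral bicarbonate cotransporter, had a mean of 5.61 ± 0.50 and the water channel Aqp1 5.29 ± 0.43 (SD, n = 4). Slc27a2, a fatty acid transporter and acyl-CoA synthetase, had a mean of 6.48 ± 0.95 (SD, n = 4) from its brighter probe set and 3.76 from the other. Of 18 amino acid transport genes 4 were above, led by Cltrn, the collectrin that carries the neutral amino acid transporters to the brush border, at 5.59 ± 0.75 (SD, n = 4). Slc6a19, the main one of those transporters, had a mean of 4.71 ± 0.30 (SD, n = 4), below the reference. None of the 7 glucose and sugar transport genes was above.

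For protein endocytosis, 4 of 10 genes were above. Lrpap1, the chaperone of megalin, had levels of 6.46, 6.54, 4.82 and 6.42 (6.06 ± 0.83, SD, n = 4), with replicate 3 low. Fcgrt, the neonatal Fc receptor, had a mean of 5.32 ± 0.29 (SD, n = 4). Dab2, the adaptor of megalin, had 4.58 ± 0.38 (SD, n = 4), below the reference.

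Enzymes of glucose synthesis (gluconeogenesis) and fructose metabolism, taken as 1 list, stood high. Of 11 genes of gluconeogenesis and fructose metabolism, 7 were above the reference by their mean and the median percentile was 93.9. In all 4 arrays, against each array's own reference, 2 of the 11 were above. Pck1, the enzyme that makes phosphoenolpyruvate, had levels of 7.76, 7.10, 6.77 and 7.12 (7.19 ± 0.41, SD, n = 4) and rank 75. Fbp1, fructose-1,6-bisphosphatase, had a mean of 5.67 ± 0.64 and G6pc, the last enzyme of gluconeogenesis, 5.08 ± 0.53 (SD, n = 4). Pck2 was the lowest member, with a mean of 4.02. Of 12 glycolysis genes 4 were above. Gapdh, which gluconeogenesis and glycolysis share, had levels of 8.64, 8.30, 6.00 and 8.16 (7.77 ± 1.20, SD, n = 4) and rank 48. Replicate 3 was thus low for this common control gene.

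Antioxidant enzymes were above the reference in 5 of 16 cases. Sod1, the cytosolic superoxide dismutase, had levels of 8.90, 8.35, 6.61 and 8.02 (7.97 ± 0.97, SD, n = 4) and rank 44. Gpx1, the cytosolic glutathione peroxidase, had levels of 7.99, 6.70, 6.81 and 7.16 (7.16 ± 0.58, SD, n = 4) and rank 76. Catalase (Cat) had a mean of 6.06 ± 0.33 (SD, n = 4). The peroxidases, the dismutase and catalase made up the members that stood high, and Gstm1 and Gsr were below the reference.

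Of 21 genes of fatty acid oxidation and peroxisomes, 7 were above. Cyp4b1, a P450 enzyme of a family of fatty acid hydroxylases, had levels of 8.65, 6.79, 6.16 and 6.83 (7.11 ± 1.07, SD, n = 4) and rank 80. Acaa1b, a peroxisomal thiolase, had levels of 6.59, 7.25, 6.98 and 6.71 (6.88 ± 0.30, SD, n = 4) and rank 99. Etfb, which passes electrons from fatty acid oxidation to the respiratory chain, had a mean of 6.76 ± 0.26 (SD, n = 4). In the citric acid cycle 7 of 19 genes were above, with Mdh2, malate dehydrogenase, at 5.69 ± 0.41 (SD, n = 4). Ppargc1a, the coactivator of mitochondrial genes, had a mean of only 2.99 and rank 17592.

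The peptidase list had 4 of 16 members above. Cndp2, a cytosolic dipeptidase, had a mean of 6.76 ± 0.44 (SD, n = 4). Acy3, an aminoacylase of the proximal tubule, had levels of 8.14, 5.58, 6.26 and 6.14 (6.53 ± 1.11, SD, n = 4), high in replicate 1. Among 27 genes of amino acid, creatine and inositol metabolism, 9 were above, with Glul, glutamine synthetase, at 5.74 ± 0.43 (SD, n = 4). Xenobiotic metabolism had 3 of 22 above, led by Cyp2e1 with levels of 7.41, 6.96, 5.85 and 5.72 (6.48 ± 0.83, SD, n = 4). In the hormone group, Pth1r, the parathyroid hormone receptor that controls phosphate uptake, had a mean of 5.23 ± 0.14, and Vdr, the vitamin D receptor, 4.83 ± 0.44 (SD, n = 4).

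**Figure D2:**
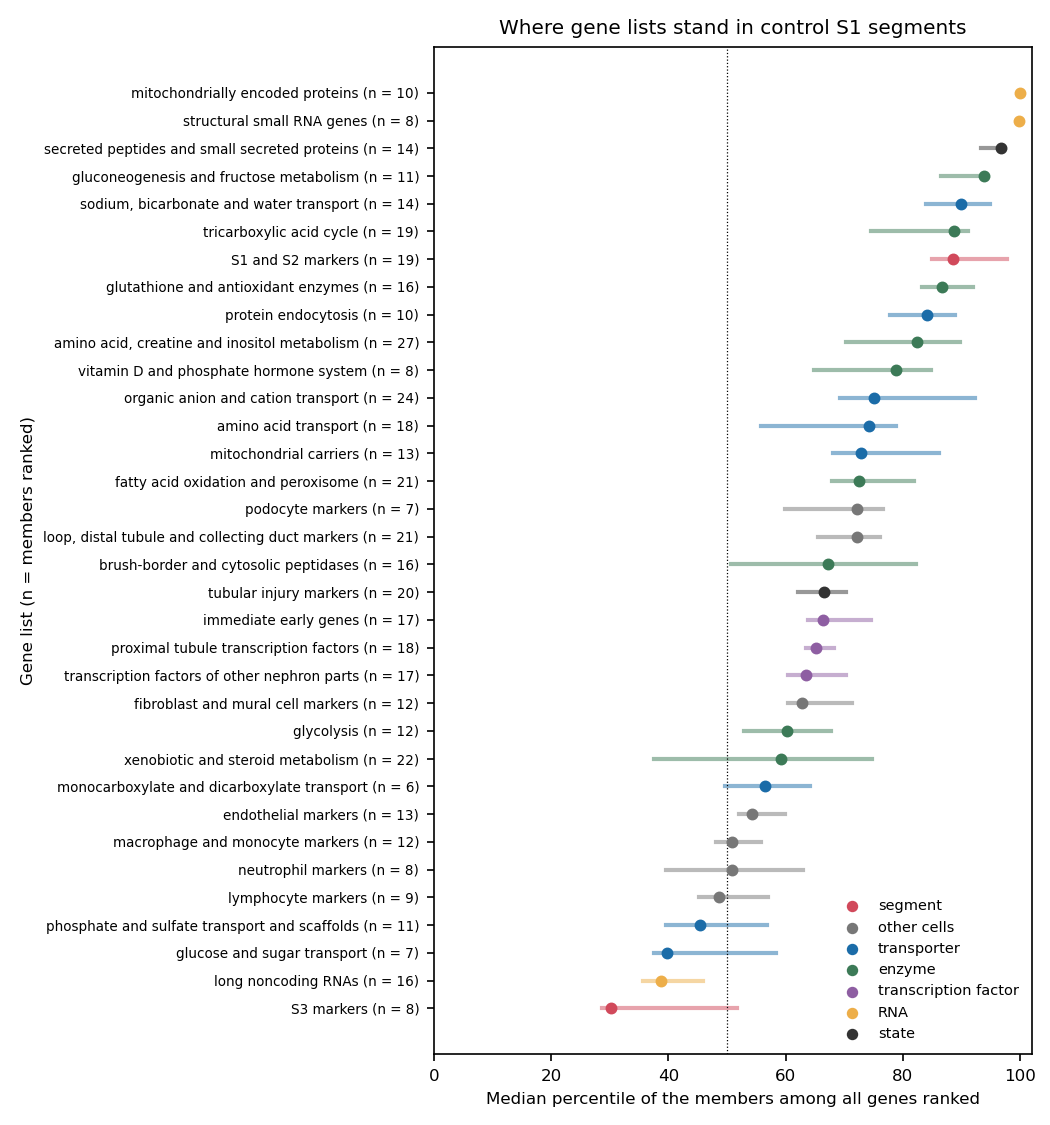
Median percentile of each gene list among the 22180 genes ranked (horizontal axis, points for the mean of the 4 control arrays, bars from the lowest to the highest array), with lists in rows and colours for the kind of list. Gluconeogenesis and fructose metabolism stand at 93.9, S1 and S2 markers at 88.5 and S3 markers at 30.3. Podocyte markers stand at 72.2 although 0 of 7 were above the reference.

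A median percentile above 50 did not mean that a list was above the reference. The 7 podocyte genes had a median percentile of 72.2 and none was above. Lists were therefore read by their counts beside the 9.19% of all genes. These counts rest on the mean, and often fewer members passed each array's own reference in all 4 arrays, as 2.74% of all genes did. Such members numbered 7 of 19 S1 and S2 markers, 5 of 24 organic ion transport genes and 2 of 19 citric acid cycle genes. They were 5 of 14 secreted products, 0 of 18 amino acid transport genes and 0 of 17 immediate early genes.

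Secreted products made up 1 of the highest lists, with 11 of 14 above. Guca2b, the natriuretic peptide uroguanylin, had levels of 7.42, 8.28, 6.75 and 7.82 (7.57 ± 0.65, SD, n = 4) and rank 56. Kap, the androgen-regulated kidney protein, had levels of 7.68, 6.75, 4.38 and 6.31 (6.28 ± 1.39, SD, n = 4) and rank 196. Spink1, a trypsin inhibitor, had levels of 6.68, 6.26, 3.68 and 5.83 (5.61 ± 1.33, SD, n = 4). Replicate 3 was the lowest for all 3. Injury markers had 4 of 20 (20%) above, against 9.19% of all genes, and 1 of 20 in all 4 arrays. The 4 were Igfbp7 at 6.31 ± 0.63, Vim at 5.33 ± 0.15, Krt8 at 5.28 ± 0.23 and Krt7 at 4.93 ± 0.33 (SD, n = 4). Lcn2, a secreted injury marker, had a mean of 3.81 and rank 10379, and Havcr1, the injury molecule KIM-1, stood at rank 16081. Of 17 immediate early genes only Junb was above, at 4.91 ± 0.14 (SD, n = 4).

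Transcription factors named by symbol family numbered 814. Of these 59 (7.25%) were above the reference, less than the 9.19% of all genes, and 1 was in the top 100. Etv5, an ETS factor, had levels of 6.44, 7.01, 7.25 and 6.92 (6.91 ± 0.34, SD, n = 4) and rank 97, while its other probe set had a mean of 3.64. Hnf4a, the nuclear receptor that drives proximal tubule genes, had levels of 7.13, 6.18, 6.00 and 6.46 (6.44 ± 0.50, SD, n = 4) and rank 160. Etv5 was lowest in replicate 1, where Hnf4a was highest.

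Mafa, a factor known from pancreatic beta cells, had a mean of 5.88 ± 0.31 and rank 299. Esrra, an orphan nuclear receptor of mitochondrial genes, had levels of 5.66, 5.81, 5.77 and 5.71 (5.74 ± 0.07, SD, n = 4) and rank 369, and Esrrg of the same family 5.03 ± 0.16 (SD, n = 4). Foxi1, the factor of intercalated cells, had a mean of 5.41 ± 0.16 (SD, n = 4). Hoxb5, Foxb2, Zfp358, Zfp319 and Zfp524 completed the 10 highest. Of 18 proximal tubule factors 3 were above, and of 17 factors of other nephron parts 2.

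RNAs without a protein took a large part of the top. Of the 100 highest genes (0.451% of those ranked), 39 were nuclear protein-coding, 19 were microRNA genes, 10 were mitochondrial, 9 were small nucleolar or Cajal body RNAs, 7 were pseudogenes, 5 were other small structural RNAs, 5 were olfactory or vomeronasal receptors and 4 were long noncoding RNAs. The last 2 were a predicted coding gene and a gene of another type. Of the genes ranked, 16832 (75.9%) were nuclear protein-coding, 478 (2.16%) were microRNA genes and 1390 (6.27%) were olfactory or vomeronasal receptors. A high rank alone does not show that a gene is expressed, since the vomeronasal receptor Vmn1r36 had a mean of 8.76 and rank 28. Just inside that limit stood Acaa1b and Gast at 6.88, and just outside it Gcn1 at 6.88 and Scgb1b3 at 6.87.

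**Figure D3:**
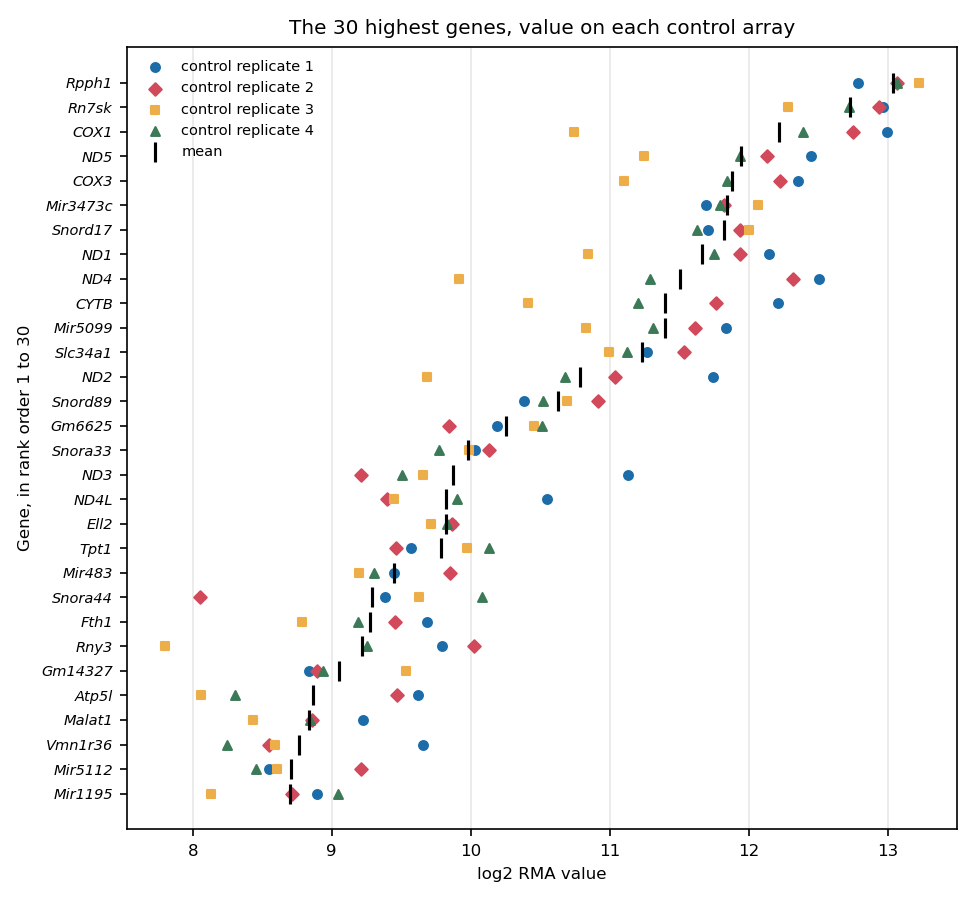
log2 RMA value (horizontal axis) of the 30 highest genes in rank order (rows), with 1 symbol for each of the 4 control replicates and a black bar for their mean. The mitochondrial genes COX1, ND4 and CYTB are lowest in replicate 3, and Rpph1, Snord17 and Ell2 vary little.

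Rpph1, the RNA of ribonuclease P, was the highest gene, with levels of 12.79, 13.07, 13.23 and 13.07 (13.04 ± 0.18, SD, n = 4). Rn7sk, the RNA that holds the elongation factor P-TEFb inactive, had levels of 12.97, 12.94, 12.28 and 12.72 (12.73 ± 0.32, SD, n = 4), and its other probe set had a mean of 12.52. Snord17, which guides modification of ribosomal RNA, had levels of 11.71, 11.94, 12.003 and 11.63 (11.82 ± 0.18, SD, n = 4) and rank 7. The Y RNAs, which bind the Ro protein, varied more: Rny3 had levels of 9.79, 10.03, 7.80 and 9.25 (SD 1.00, n = 4). Of 8 structural RNA genes listed, 6 were above the reference.

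Malat1, a nuclear long noncoding RNA, had levels of 9.22, 8.86, 8.43 and 8.85 (8.84 ± 0.32, SD, n = 4) and rank 27, from its brighter probe set, while the other had a mean of 2.97. Neat1, the RNA that builds paraspeckles, had levels of 7.39, 6.46, 6.18 and 6.80 (6.71 ± 0.52, SD, n = 4) and rank 125. Of 1926 long noncoding RNA genes ranked, 111 (5.76%) were above the reference, fewer than the 9.19% of all genes. Snhg17, a host of small nucleolar RNAs, stood at 8.62 ± 0.34 (SD, n = 4) from its brighter probe set, while the other had a mean of 4.92.

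The 10 ranked mitochondrial genes were all in the top 100. COX1, the catalytic subunit of cytochrome oxidase, had levels of 12.99, 12.75, 10.75 and 12.39 (12.22 ± 1.01, SD, n = 4) and rank 3. ND4, a subunit of complex I, had levels of 12.51, 12.32, 9.92 and 11.29 (11.51 ± 1.19, SD, n = 4) and rank 9. All 10 were highest in replicate 1, and 8 were lowest in replicate 3. The mean of the list was 11.62, 11.06, 9.99 and 10.75 in replicates 1 to 4. The other 3 of the 13 listed lay in probe sets with several symbols.

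Part of that order, replicate 1 highest and replicate 3 lowest, was shared by many transporters and enzymes above the reference. Of 80 members of those lists above the reference, 47 (58.8%) were highest in replicate 1 and 38 (47.5%) lowest in replicate 3. Over all 2038 genes above the reference the shares were 24.1% and 25.3%. Of the 19 S1 and S2 markers, 11 were highest in replicate 1 and 11 lowest in replicate 3, and the mean of that list was 5.91, 5.42, 5.02 and 5.56. Counted over all ranked members, single lists differed. Of 7 glucose and sugar transport genes, 0 were highest in replicate 1. Of 11 phosphate and sulfate genes, 6 were lowest in replicate 4. Of 18 amino acid transport genes, 7 were highest in replicate 4 and 5 in replicate 1. A high replicate 1 can also raise a member's mean, as in Slc17a3 with 7.46 there and 4.52 to 4.88 in the others. The 80 members were picked by that mean, so the filter itself may raise their share highest in replicate 1. Small nucleolar RNAs did not follow the pattern, with 1 of 26 above the reference highest in replicate 1. Of the 21 markers of the loop, distal tubule or collecting duct, 6 were highest in replicate 1 and 9 lowest in it. What set the arrays apart in this way was not tested. Fewer cells of a type and less RNA per cell cannot be told apart in such samples.

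**Figure D4:**
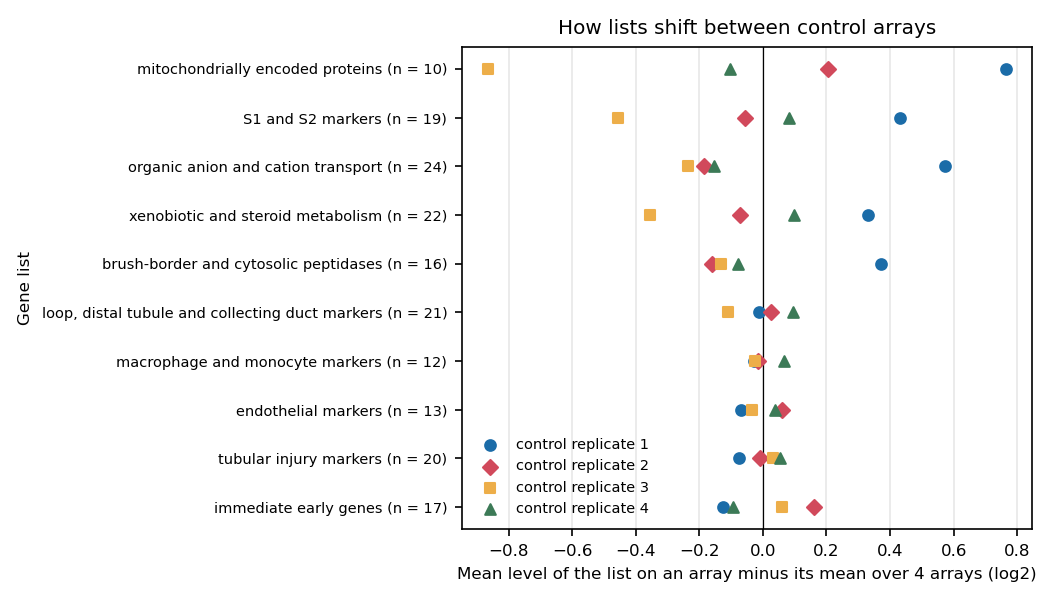
Mean level of 10 gene lists on each control array minus the list's mean over the 4 arrays (horizontal axis, log2), with lists in rows and 1 symbol for each replicate. Mitochondrial genes and S1 and S2 markers are highest in replicate 1 and lowest in replicate 3, while the lists of other cells, injury and immediate early genes lie nearer to 0.

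MicroRNA genes were above the reference in 87 of 478 cases (18.2%), against 9.19% of all genes. The median of these 478 genes was 3.12, below the 3.74 of all genes, so most of the class was low. Mir3473c, whose sequence is shown above, had a mean of 11.84 ± 0.16 and Mir5099 11.40 ± 0.43 (SD, n = 4). Mir483 had a mean of 9.45 and Mir210 of 7.04. Across the 400 genes with a RefSeq hairpin, which share the arrays and the labelling, the Spearman correlation of mean level and G and C share was 0.48, and 0.453 to 0.472 in single arrays. In groups of 100 genes from low to high share, the median level was 2.22, 2.63, 3.17 and 4.46, and 11, 5, 13 and 41 genes were above the reference. Mir3473c, with 42.0% G and C bases, and Mir5099, with 37.8%, lay far above the genes of like composition. The part of base composition in the microRNA levels was not tested further.

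**Figure D5:**
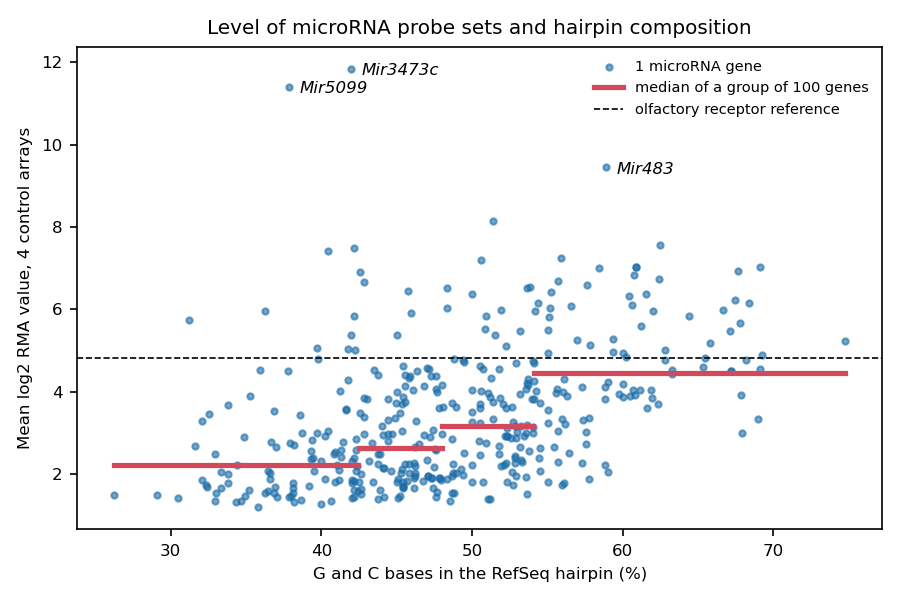
Mean log2 RMA value over the 4 control arrays (vertical axis) against the percent of G and C bases in the RefSeq hairpin (horizontal axis) for 400 microRNA genes, with red lines for the median of each group of 100 genes and a dashed line at the olfactory receptor reference. The medians go from 2.22 to 4.46, and Mir3473c and Mir5099 stand apart at 11.84 and 11.40.

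Several high nuclear genes rested on 1 probe set. Ell2, an elongation factor subunit, had levels of 9.87, 9.87, 9.72 and 9.83 (9.82 ± 0.07, SD, n = 4) and rank 19, but 3.51 on its other probe set. Tpt1, a translationally controlled protein, had a mean of 9.78 and 4.88 on the other. Over 276 genes above the reference with more than 1 probe set, the gap between the best and the second had a median of 1.33, and for 66 (23.9%) it was over 2. Fth1, the ferritin heavy chain that stores iron, had levels of 9.68, 9.45, 8.79 and 9.19 (9.28 ± 0.38, SD, n = 4) and rank 23. Ribosomal protein genes stood above the reference in 29 of 62 cases (46.8%), against 9.19% of all genes. Taking the brightest probe set favours genes with several: of 1082 such genes of any kind, 276 were above. Among ribosomal protein genes, Rplp1 had 8.38 on its best and 4.65 on its second probe set, and Rps18 8.29 and 4.30. Rpl41 had 7.78 and 7.68.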

How the data were processed

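The authors deposited log2 RMA values per probe set for 13 arrays, and per the submitters' processing notes the tools were Partek 6.6 and RMA. The sources used here do not name the background step, the scaling between arrays or the genome build. RNA came from a PicoPure extraction and was labelled in nanogram amounts with the WT Pico method, per the labels' protocols. Of 41345 probe sets, 23521 had 1 gene symbol in the platform annotation, 1814 had several and 16010 had none. The last 2 kinds were left out, and they held 7 (several) and 159 (none) of the 200 highest probe sets. Entrez identifiers of 21991 genes matched RefSeq (GRCm38.p6), which gave the RNA types.

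Levels were averaged over the 4 controls with numpy 2.4.6 and pandas 2.3.3 in Python 3.11.15, and figures drawn with matplotlib 3.10.9. No test between groups or genes was made, since a single group was described, and Dixon's test was used only to find single arrays far from the others. The ranking and Dixon's test were tested on simulated data. Named genes were the 30 highest, the 12 highest transporters, the 10 highest transcription factors, the 8 highest noncoding RNAs, the 4 highest members of each of 35 lists, the markers and the 10 largest SDs above the reference. Mir210, Gast, Gcn1, Scgb1b3 and the genes given with a low level or a second probe set were picked after their values were seen. Spink1 and Snhg17 were also named outside that rule. The members and lists were chosen with earlier results of these data known, and the symbol families, the base composition of hairpins and the second probe sets were chosen after seeing the data. Alternatives changed the probe set rule, the reference, the genes ranked and the arrays used. The number of arrays limits the precision.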

Additional observations from a re-analysis of the deposited data

Results flagged for a closer look

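In 11 of the 202 named genes (5.45%) and in 4 of 35 list means, 1 control array lay far from the other 3 (Dixon's test), and chance flags about 1 in 20. Over the 2038 genes above the reference the share was 176 (8.64%). The named genes include 10 picked for their large SD over these same arrays, among them the flagged Olfr612 and Olfr1337. The share of the named genes can therefore not be set against the chance rate. The 2038 genes were picked by their mean, which 1 high array can raise, so the same holds for their share.

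In replicate 3, Gm14327 was high at 9.54 against 8.84 to 8.94 in the others, Sdhd high at 5.88 against 5.23 to 5.29, Lrpap1 low at 4.82 against 6.42 to 6.54 and Esrrg low at 4.80 against 5.10 to 5.12. In replicate 1, Vim was low at 5.10 against 5.39 to 5.42, and Slc7a13 high at 4.29 against 2.90 to 3.02. In replicate 2, Olfr1337 was high at 9.26 against 4.39 to 4.72, Wt1 high at 4.72 against 4.35 to 4.38 and Cd2ap low at 2.37 against 2.79 to 2.82. In replicate 4, Olfr612 was high at 10.05 against 4.28 to 4.95 and Ldhb high at 5.89 against 4.91 to 5.05.

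Among list means, organic anion and cation transport was high in replicate 1 at 5.01 against 4.20 to 4.29, as were the peptidases at 4.63 against 4.10 to 4.18. In replicate 4 the macrophage list was high at 3.88 against 3.79 to 3.80, and the long noncoding RNA list low at 3.99 against 4.16 to 4.19.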

How the results depend on the processing

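The count above the reference depended most on the reference: 2038 genes became 396 with the 99th percentile of olfactory receptors, 477 with the 95th percentile of vomeronasal receptors and 607 when each array's reference had to be passed in all 4. Of the 100 highest genes, 57 were kept without predicted genes, pseudogenes and small RNA genes, and 50 among protein-coding genes other than chemosensory receptors only, an alternative chosen after seeing the data. Under these 2 settings Slc34a1 moved from rank 12 to 7 and 7, and Gpx3 from 114 to 67 and 59, since fewer genes were ranked. Gpx3 had rank 87 with the mean over all probe sets of a gene. The S3 list stood at 49.78 with the mean in place of the median percentile. Leaving out each control array in turn gave 1804 to 2532 genes above the reference, 91 to 94 of the 100 highest kept, median percentiles of 87.41 to 92.97 for S1 and S2 markers, 27.77 to 32.98 for S3 and 68.89 to 72.66 for the loop, distal tubule and collecting duct, and ranks of 10 to 12 for Slc34a1, 3545 to 4302 for Slc5a2, 55 to 83 for Slc22a6, 484 to 1377 for Lrp2, 109 to 128 for Gpx3 and 192 to 311 for Miox. Of the other list values, 26 moved by over 1 SD and 343 did not. The mean in place of the median percentile gave 15 of those 26, and only 16 values stayed under that setting. List percentiles therefore depended on the choice of the median. Lists with under 3 members left were given no value. No paired analysis was possible because 1 group was described and the values come from no test.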

Other observations

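Some kidney genes differed between the control arrays by more than most. Inmt, a methyltransferase, had levels of 8.96, 6.63, 4.81 and 4.91 in replicates 1 to 4. Klk1, the tissue kallikrein known from the connecting tubule, had levels of 7.77, 3.18, 8.10 and 7.03. Slc22a29, a member of the organic ion family, had levels of 6.83, 1.82, 1.72 and 1.40, so it was high in replicate 1 alone. Ndufc2, a subunit of complex I, had levels of 5.42, 5.84, 8.80 and 5.24, high in replicate 3, where 8 of the 10 mitochondrially encoded genes were lowest. Snora62 had levels of 8.27, 9.75, 4.85 and 4.44. Of the genes above the reference, 89 (4.37%) had an SD over 1. These genes were picked after their values were seen.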
